A study of Mus musculus with 16 samples.

Results

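The 10 genes described here serve skeletal muscle contraction and were measured on 16 microarrays of macrophages from mouse fat. They are the troponin genes Tnnc2, Tnni2 and Tnnt3, the actin gene Acta1, the myosin genes Myh4 and Mylpf, the alpha-actinin gene Actn3, the calcium pump gene Atp2a1, the calcium buffer gene Pvalb and the creatine kinase gene Ckm. These 10 genes, of 17097 measured, were chosen by their measured log2 difference between the fat depots of WT mice, where several were among the genes that differed most. Their levels are therefore given as a description, and a p-value is given for them only in the knockout depot comparison, whose difference uses other arrays. Its error is estimated from all 16 arrays, those of WT included, so these p-values are not fully independent of the choice. Counts of limma calls in the other comparisons involve the WT arrays that chose the genes and are printed as a description. Each gene is represented by the probe set with the highest mean over the 16 arrays.

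The 4 groups held 4 arrays each, and each array carried RNA from 1 pool of cells of mice aged 19 to 21 weeks. KO VAT and KO SAT are visceral and subcutaneous fat of the genotype labelled KO-LysM, which the design text writes as LysM-Sucnr1-/-. Sucnr1 encodes the receptor for succinate, and LysM is the name of a promoter active in myeloid cells. WT VAT and WT SAT are the same depots of the genotype labelled WT, for which the design text names Sucnr1flox/flox mice. The texts do not say whether WT mice carry Cre recombinase, so loss of Sucnr1 and the presence of Cre cannot be told apart. All 4 groups also share the label NCD, which is not spelled out. The labels used here give no sex, no number of mice per pool and no word on whether pools share mice, so p-values measure the spread between pools. Fat was digested with collagenase, red cells were lysed and cells were bound to CD11b beads, although another label speaks of F4/80-positive cells. RNA from 300000 cells was amplified as cDNA over 24 cycles. Pools 1 and 2 belong to day 1 and pools 3 and 4 to day 2 in every group.

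In a fast skeletal muscle fibre, calcium released from the sarcoplasmic reticulum binds troponin C on the thin filament, troponin I and troponin T shift tropomyosin, and myosin heads pull on actin. Parvalbumin and the calcium pump of the reticulum then lower calcium again, and creatine kinase restores ATP at the filaments. These proteins are made in muscle fibres in great amount, and a macrophage is not known for making them. In RNA of whole fractions, fewer cells of a type and less RNA per cell cannot be told apart.

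Some arrays went against their depot labels. Genes that mark subcutaneous fat by position (Tbx15, Shox2, En1, Sfrp2, Hoxc9 and Hoxc10) were lower in VAT than SAT in WT, with 6 of 6 differences below 0 and 1 that passed (1.32% of all genes were called lower), but higher in the arrays labelled KO VAT than in those labelled KO SAT, with 6 of 6 above 0 and 5 that passed (1.92% of all genes were called higher). Seminal vesicle genes, from a gland of the male, were high on the arrays labelled KO SAT, where the mean of 7 genes was 9.70 ± 0.32, against 4.32 ± 0.08 in KO VAT. In the WT arrays it was 4.43 ± 0.17 in VAT and 4.74 ± 0.56 in SAT (log2; SD, n = 4). Of 8 genes that mark visceral fat by position, 0 rose and 1 fell in KO VAT against KO SAT (2.39% of all genes fell), and 2 rose and 0 fell in WT VAT against WT SAT (1.52% rose). Why the arrays of 1 genotype run against their depot labels was not tested. Depots are named below as labelled, and every KO depot value rests on these arrays, so none could be given without them. All 18 macrophage markers lay above background in all 4 groups, background being 4.78, the 95th percentile of the means of 41 olfactory receptor genes. Sucnr1 lay below it in every group, between 3.35 and 3.65 on the 16 arrays, and so does not check the genotype labels.

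Promoters are shown because the genes move together. RefSeq promoters of mouse, 250 bases before and 50 after the start, were at hand for 7 of the 10 genes and were not used for Tnnt3, Tnni2 and Actn3. Promoter positions are read as those of GRCm38.p6, a genome build that the promoter records themselves do not name. The letters CAGCTG, the E-box form that MyoD family factors prefer, were found on either strand in 5 of the 7 genes, against 16.3% of 32851 promoters of the same length. The wider E-box CANNTG, which contains the first, was found in 7 of 7 and in 72.3% of all. A gene was counted if any of its promoters matched, while the shares are per promoter. Pvalb had a further promoter, which held none of the motifs in the forms searched. The CArG box, the site of serum response factor, was found in 2 of 7 and in 1.63% of all. The MEF2 site was searched only in a strict form, which does not allow T as its first base. That form was found in 0 of 7 and in 0.557% of all. A looser form with T as its first base was not counted, although it occurs in the Myh4 promoter and in the further Pvalb promoter. The count of 0 therefore does not show that these promoters lack a MEF2 site. A match is a description of letters and not a bound site. In the 5 promoters below, capitals mark CAGCTG and the CArG box; Tnnc2, which differed most, holds neither in this window.
Acta1 (chr8:123894726-123895025, minus strand): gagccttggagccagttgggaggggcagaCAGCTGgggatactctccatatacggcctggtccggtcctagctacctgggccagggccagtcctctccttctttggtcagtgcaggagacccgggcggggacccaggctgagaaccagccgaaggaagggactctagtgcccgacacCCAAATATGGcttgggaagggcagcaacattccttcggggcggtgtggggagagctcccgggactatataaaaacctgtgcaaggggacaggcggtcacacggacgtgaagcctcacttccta
Myh4 (chr11:67237562-67237861, plus strand): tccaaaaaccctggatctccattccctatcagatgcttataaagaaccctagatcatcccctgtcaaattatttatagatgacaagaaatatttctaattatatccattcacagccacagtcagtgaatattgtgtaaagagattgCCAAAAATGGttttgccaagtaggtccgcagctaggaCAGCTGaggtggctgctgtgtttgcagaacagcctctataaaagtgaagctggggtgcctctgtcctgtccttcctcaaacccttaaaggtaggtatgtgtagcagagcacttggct
Atp2a1 (chr7:126463024-126463323, minus strand): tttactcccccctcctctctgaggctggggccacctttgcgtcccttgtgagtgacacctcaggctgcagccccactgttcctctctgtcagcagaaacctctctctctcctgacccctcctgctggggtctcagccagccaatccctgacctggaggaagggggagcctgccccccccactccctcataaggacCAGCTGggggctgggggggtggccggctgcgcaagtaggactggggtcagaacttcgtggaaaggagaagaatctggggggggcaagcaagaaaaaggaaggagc
Mylpf (chr7:127211358-127211657, plus strand): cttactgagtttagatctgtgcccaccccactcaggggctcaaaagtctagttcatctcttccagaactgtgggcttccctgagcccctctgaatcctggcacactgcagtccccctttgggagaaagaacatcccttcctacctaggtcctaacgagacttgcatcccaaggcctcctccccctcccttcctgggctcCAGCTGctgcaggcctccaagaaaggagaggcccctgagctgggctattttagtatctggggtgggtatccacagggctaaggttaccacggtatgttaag
Tnnc2 (chr2:164779685-164779984, minus strand): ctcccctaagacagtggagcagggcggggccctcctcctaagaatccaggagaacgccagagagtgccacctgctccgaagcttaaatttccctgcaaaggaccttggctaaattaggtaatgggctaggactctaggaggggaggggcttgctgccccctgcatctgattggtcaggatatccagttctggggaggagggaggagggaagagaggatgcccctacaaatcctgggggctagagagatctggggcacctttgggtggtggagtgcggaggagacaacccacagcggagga

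The CAGCTG of Atp2a1 begins 55 bases before the start, that of Mylpf 51 and that of Myh4 67, while that of Acta1 begins 221 and that of Ckm, whose promoter is not printed, 249 bases before it. The CArG box begins 73 bases before the start in Acta1 and 104 in Myh4.

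The muscle genes were highest in WT SAT, intermediate in the arrays labelled KO VAT and lowest in WT VAT and KO SAT. All 10 genes had their group means in the same order, WT SAT over KO VAT over WT VAT over KO SAT. The arrays of WT SAT lay above all those of KO VAT for 10 of 10 genes, and those of KO VAT above all those of WT VAT for 7 of 10, the exceptions being Tnni2, Myh4 and Actn3. WT VAT and KO SAT overlapped for 9 of 10, all but Pvalb, and so cannot be ordered beyond their spread. For Pvalb the lowest WT VAT array (4.77) and the highest KO SAT array (4.76) nearly met, both below background. The genes vary together, and the share of all genes without overlap is not given, so these counts are descriptions. The mean of the 10 log2 values was 5.87 ± 0.24 in KO VAT and 4.84 ± 0.10 in KO SAT, and in the WT mice 5.04 ± 0.16 in VAT against 7.52 ± 0.37 in SAT (SD, n = 4).

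**Figure D1:**
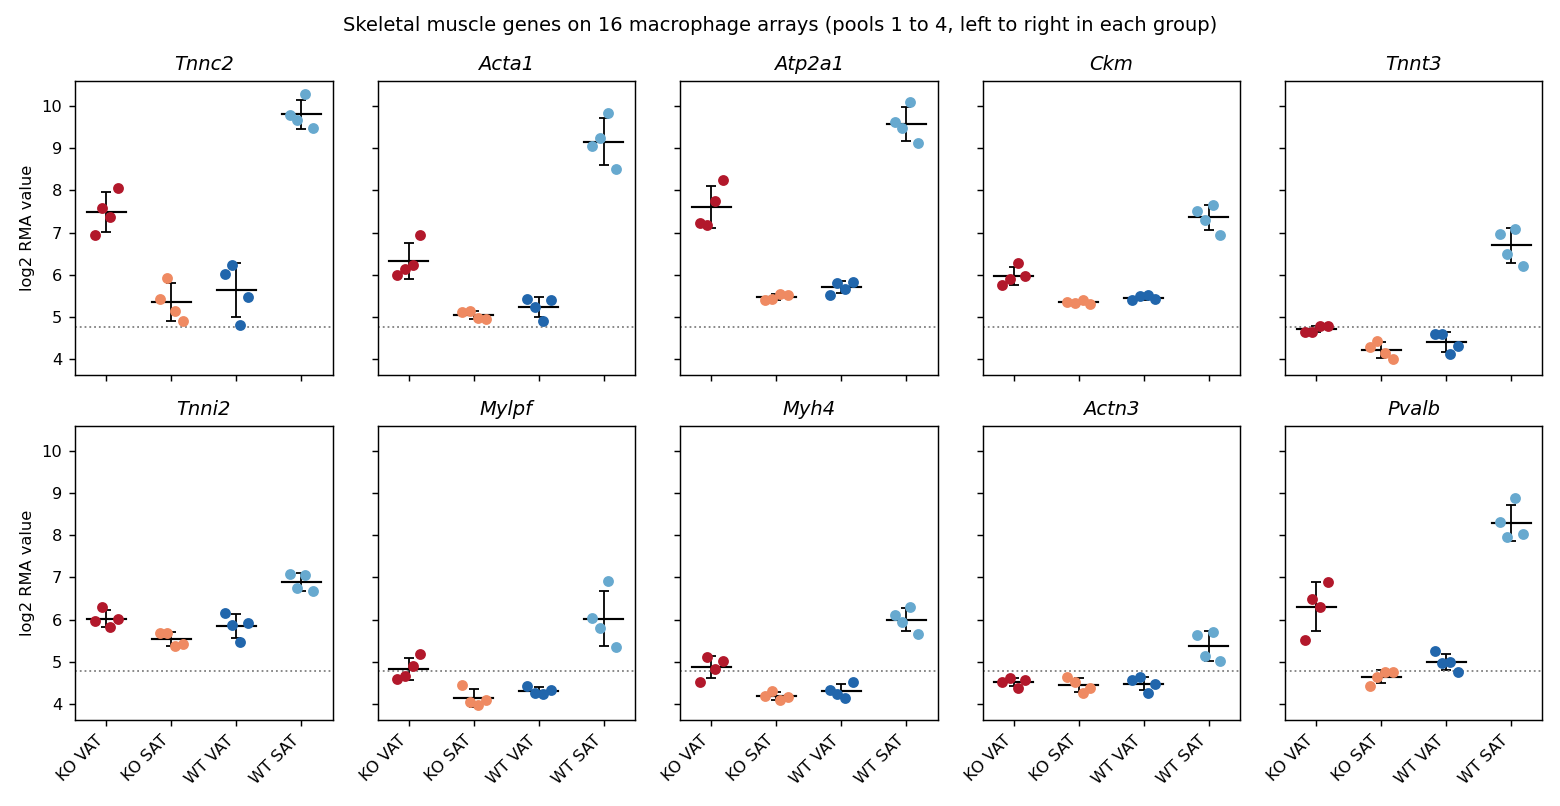
Log2 values (vertical axis) of the 10 genes on each array, by group (horizontal axis); points are pools 1 to 4 from left to right, bars the mean and SD of 4 arrays, and the dotted line background at 4.78. In every panel the WT SAT points lie above all others, and the KO VAT mean comes next.

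Tnnc2, the calcium-binding subunit of fast troponin, stood at 6.95, 7.58, 7.37 and 8.06 in pools 1 to 4 of KO VAT, 5.44, 5.94, 5.15 and 4.92 in KO SAT. In WT mice it stood at 6.01, 6.25, 4.82 and 5.47 in WT VAT and at 9.79, 9.66, 10.27 and 9.49 in WT SAT (log2 values). The 4 WT SAT arrays were high and apart from the rest, every KO VAT array lay above every WT VAT and KO SAT array, and the last 2 groups ran through each other. On the log2 scale Tnnc2 was lower in WT VAT than in WT SAT by a difference of -4.17 ± 0.30 (SE, n = 4), the lowest of all 17097 genes. It rose in KO VAT against KO SAT by 2.13 ± 0.30 (4.37-fold, limma adjusted p = 0.00059).

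Tnni2, the inhibitory subunit of fast troponin, was at 5.97, 6.29, 5.82 and 6.01 in KO VAT, 5.68, 5.69, 5.38 and 5.42 in KO SAT, 6.16, 5.89, 5.47 and 5.92 in WT VAT, and 7.09, 6.74, 7.06 and 6.68 in WT SAT. The WT SAT arrays again stood apart, but KO VAT and WT VAT overlapped. Tnni2 rose in KO VAT against KO SAT by 0.48 ± 0.13 (limma adjusted p = 0.0457), a call that was lost with pool number as a block (adjusted p = 0.0779) and in 16 alternatives in all. Tnnt3, which ties troponin to tropomyosin, was at 4.65, 4.65, 4.79 and 4.79 in KO VAT, 4.30, 4.44, 4.15 and 4.00 in KO SAT, 4.61, 4.59, 4.13 and 4.32 in WT VAT, and 6.97, 6.51, 7.10 and 6.21 in WT SAT. The arrays of WT SAT stood apart. Only the WT SAT mean of Tnnt3 was above background, and its difference of 0.50 ± 0.16 between KO VAT and KO SAT did not pass (limma adjusted p = 0.123), except without WT SAT pool 3 or with the compared arrays alone, at the same 0.50.

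Acta1 encodes the actin of skeletal thin filaments. It was at 6.0, 6.15, 6.24 and 6.94 in KO VAT, 5.13, 5.14, 4.98 and 4.97 in KO SAT, 5.42, 5.25, 4.91 and 5.41 in WT VAT, and 9.05, 9.24, 9.84 and 8.51 in WT SAT. All arrays of KO VAT lay above all of KO SAT and WT VAT, and all of WT SAT above those. Acta1 rose in KO VAT against KO SAT by 1.28 ± 0.24 (2.42-fold, adjusted p = 0.00573, limma), against a difference of -3.91 ± 0.24 between WT VAT and WT SAT. The KO call was lost on day 2 alone (1.62).

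Myh4, the heavy chain of the fastest myosin of mouse limb and trunk fibres, had the values 4.52, 5.13, 4.84 and 5.01 in KO VAT, 4.20, 4.31, 4.09 and 4.16 in KO SAT, 4.33, 4.24, 4.15 and 4.53 in WT VAT, and 6.10, 5.94, 6.30 and 5.65 in WT SAT. KO VAT pool 1 overlapped with WT VAT pool 4, and the KO SAT and WT VAT means were below background, so that differences against them are not exact sizes. Myh4 rose in KO VAT against KO SAT by 0.68 ± 0.15 (limma adjusted p = 0.0128), and did not pass when pool 2 (0.59) or 4 (0.63) of KO VAT was left out, nor when pool 3 of KO SAT was (0.65). It also did not pass on day 1 alone (0.57), on day 2 alone (0.80) or with the mean of probe sets (0.35). Probes for this gene may also bind RNA of the closely related Myh1 and Myh2. Mylpf, the regulatory light chain of fast fibres, was at 4.58, 4.66, 4.91 and 5.18 in KO VAT, 4.45, 4.06, 3.98 and 4.10 in KO SAT, 4.42, 4.27, 4.25 and 4.33 in WT VAT, and 6.04, 5.79, 6.92 and 5.36 in WT SAT. The KO VAT and KO SAT arrays of Mylpf did not overlap, yet the difference of 0.69 ± 0.24 did not pass (limma adjusted p = 0.162). It passed only without WT SAT pool 3 or with the compared arrays alone, at the same 0.69. The KO SAT and WT VAT means of Mylpf and pools 1 and 2 of KO VAT lay below background, so that 0.69 is not an exact size.

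Actn3, the alpha-actinin of fast fibre Z-discs, moved least. It was at 4.52, 4.62, 4.38 and 4.58 in KO VAT, 4.63, 4.52, 4.26 and 4.37 in KO SAT, 4.56, 4.64, 4.26 and 4.48 in WT VAT, and 5.64, 5.13, 5.72 and 5.03 in WT SAT. Only WT SAT was above background for Actn3, and the other 3 groups overlapped throughout. The KO VAT minus KO SAT difference was 0.08 ± 0.14 (limma adjusted p = 0.996), and -0.0065 on day 1 alone.

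Atp2a1, the calcium pump of fast sarcoplasmic reticulum, stood at 7.24, 7.18, 7.74 and 8.26 in KO VAT, 5.41, 5.43, 5.54 and 5.52 in KO SAT, 5.53, 5.82, 5.67 and 5.82 in WT VAT, and 9.61, 9.49, 10.08 and 9.12 in WT SAT. The 3 levels were separate, with KO SAT and WT VAT together at the bottom. Atp2a1 rose in KO VAT against KO SAT by 2.13 ± 0.20 (4.37-fold, limma adjusted p = 1.06e-05), which ranked 16th from the top among all genes. Tnnc2 ranked 15th. Pvalb, the parvalbumin of fast fibres and of some neurons, was at 5.53, 6.49, 6.31 and 6.90 in KO VAT, 4.43, 4.65, 4.75 and 4.76 in KO SAT, 5.26, 4.97, 4.99 and 4.77 in WT VAT, and 8.30, 7.95, 8.87 and 8.03 in WT SAT. Its 4 groups did not overlap, but the lowest WT VAT array (4.77) and the highest KO SAT array (4.76) nearly met. Both lay below background, so these 2 groups are not told apart. It rose in KO VAT against KO SAT by 1.66 ± 0.23 (limma adjusted p = 0.000614). Its KO SAT mean lay below background, so that this is not an exact size.

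Ckm, the creatine kinase of muscle cytosol, was at 5.76, 5.90, 6.27 and 5.98 in KO VAT, 5.37, 5.34, 5.40 and 5.31 in KO SAT, 5.40, 5.49, 5.52 and 5.44 in WT VAT, and 7.53, 7.31, 7.66 and 6.95 in WT SAT. Ckm rose in KO VAT against KO SAT by 0.63 ± 0.13 (limma adjusted p = 0.0117), with all 4 KO VAT arrays above all 4 KO SAT arrays. The call was lost on day 1 alone (0.48), on day 2 alone (0.77) and with the mean of probe sets (0.29).

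Counted together, 7 of 10 genes rose and 0 fell in KO VAT against KO SAT, where 1.92% of all genes tested were called higher and 2.39% lower. The median of the 10 log2 differences was 0.68, beside 0.0024 over all genes. The arrays did not overlap for 9 of 10, a description given without the share over all genes. With pool number as a block, 6 of 10 passed. On day 1 alone 4 passed and 9 of 10 differences were above 0, with a median of 0.52. On day 2 alone 3 passed and 10 of 10 were above 0, with a median of 0.90. With the mean of a gene's probe sets in place of the highest, 4 passed. Over all genes, 626 were called with the block, 262 on day 1 alone, 199 on day 2 alone and 828 with the mean of probe sets.

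In WT VAT against WT SAT all 10 were lower past the threshold, where 1.32% of all genes were called lower and 1.52% higher. Since this comparison brought the genes forward, nothing is read from that count. The median was -2.09, with -2.06 on day 1 and -2.14 on day 2, and the smallest differences among the 10 were -0.89 for Actn3 and -1.04 for Tnni2. The depot difference in KO lay above 0 for each gene, against the WT direction, though for Actn3 it was within its error (0.08 ± 0.14). On the log2 scale the size of the KO difference was 55.0% of the WT one for Atp2a1, 51.1% for Tnnc2, 50.4% for Pvalb, 46.2% for Tnni2, 32.7% for Acta1, 21.8% for Tnnt3 and 8.70% for Actn3. The genes were chosen by their WT differences, which can make the KO ones smaller beside them, so nothing is read from the smaller size. The interaction term, KO depot difference less WT depot difference, was above 0 past the threshold for 10 of 10 genes, where 2.10% of all genes were called higher and 2.12% lower, and carries the choice of the genes in WT. For genes whose low groups lie below background these shares are not exact.

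**Figure D2:**
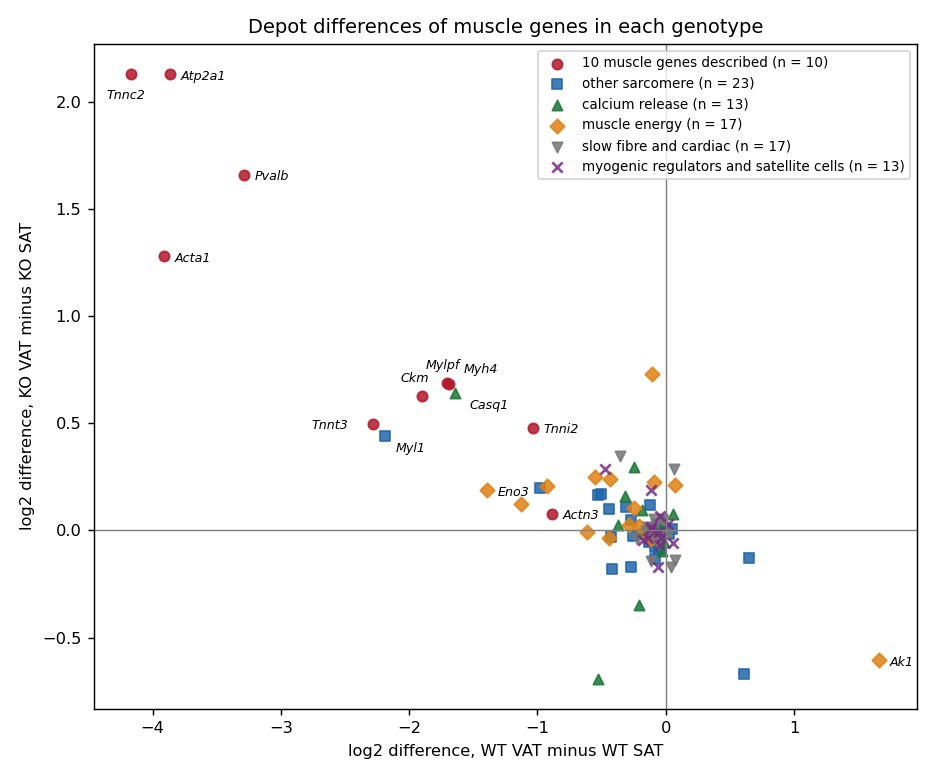
Log2 difference between depots in WT (VAT minus SAT, horizontal axis) against that in KO (VAT minus SAT, vertical axis) for the 10 genes and 5 lists of other muscle genes; each point is 1 gene. The 10 genes lie left of 0 and above 0, from Actn3 at -0.89 and 0.08 to Tnnc2 at -4.17 and 2.13, while the slow fibre gene farthest up and left, Tnnc1, lies at -0.35 and 0.35.

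The comparisons of genotype within a depot share their WT arrays with the comparison that brought the genes forward, so their values are set beside the others with no p-value, and nothing is read from the counts of limma calls among them. KO SAT minus WT SAT, the log2 differences were -4.44 for Tnnc2, -4.10 for Acta1, -4.10 for Atp2a1, -3.64 for Pvalb, -2.48 for Tnnt3, -2.01 for Ckm, -1.88 for Mylpf, -1.81 for Myh4, -1.35 for Tnni2 and -0.93 for Actn3. All 10 were past the threshold, where 20.0% of all genes were called lower and 16.7% higher. KO VAT minus WT VAT, they were 1.89 for Atp2a1, 1.85 for Tnnc2, 1.31 for Pvalb, 1.08 for Acta1, 0.56 for Myh4, 0.52 for Ckm, 0.51 for Mylpf, 0.31 for Tnnt3, 0.16 for Tnni2 and 0.04 for Actn3. In that depot 6 of 10 were past the threshold, where 10.2% of all genes were called higher and 5.76% lower. All 10 values were below 0 in the depot labelled SAT, and all 10 above 0 in the depot labelled VAT, where the value of Actn3 changed sign without WT VAT pool 3 (-0.017) or KO VAT pool 4 (-0.0081).

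**Figure D3:**
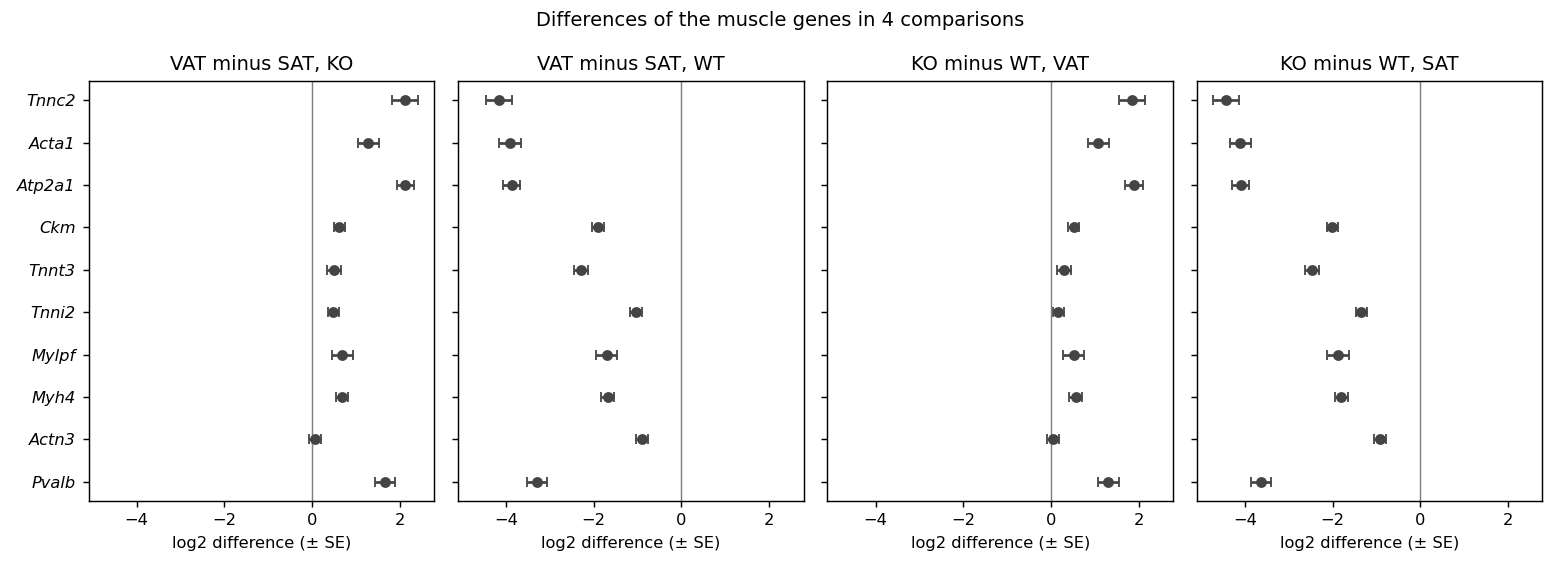
Log2 differences with their SE (horizontal axis) of the 10 genes (rows) in 4 comparisons, from the fit to 16 arrays. The differences lie above 0 for KO VAT against KO SAT and for KO VAT against WT VAT, and below 0 for WT VAT against WT SAT and for KO SAT against WT SAT.

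Within groups the genes also varied together. In WT SAT, pool 3 was the highest array for 9 of 10 genes and pool 4 the lowest for 9 of 10, with means over the 10 genes of 7.98 and 7.10. In KO VAT, pool 4 was highest for 6 genes and pool 1 lowest for 7, with means of 6.17 and 5.57. In WT VAT, pool 3 was lowest for 7 genes and pool 1 highest for 5, with means of 4.82 and 5.17. In KO SAT, pool 2 was highest for 5 genes and pools 3 and 4 were lowest for 4 each. Over deviations from group means, the median correlation of the 45 gene pairs was 0.64, between 0.01 and 0.87 (n = 16 arrays, which share the pool of RNA, the amplification and the normalization). These correlations describe the arrays and are not tested.

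The other probe sets of 3 genes were less clear. Ckm, Myh4 and Tnni2 have 4 further probe sets between them. The second of Myh4 was at 3.85 ± 0.10 in KO VAT, 3.83 ± 0.14 in KO SAT, 3.93 ± 0.24 in WT VAT, and 4.52 ± 0.05 for WT SAT. A second of Tnni2 was at 5.96 ± 0.12, 5.80 ± 0.15, 5.88 ± 0.10 and 6.37 ± 0.08 in the same groups (SD, n = 4), so that both were highest in WT SAT. The second of Myh4, the other of Tnni2 and the second of Ckm lay below background in all 4 groups, and the second of Ckm, at 4.62 ± 0.18 in WT VAT against 4.60 ± 0.13 in WT SAT, did not show the depot difference of the first.

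For 8 of the 10 genes a related gene serves the same part in slow fibres, in the heart or in both. Of these 8 counterparts, which are not taken as absent from fast fibres or other cells, 0 passed in either depot comparison. Of all genes, 1.92% were called higher and 2.39% lower in KO, and 1.52% and 1.32% in WT. A count of 0 among 8 genes is near these shares, so nothing is read from it. The pairs were set up after the values had been seen, and the difference between partners was not tested. Actn2, Tnnt1 and Actc1 lay below background in all 4 groups and Myl2 in all but WT SAT, so a difference in them could not be measured here. Tnnc1, the slow and cardiac troponin C, was 0.35 ± 0.11 higher in KO VAT than KO SAT and differed by -0.35 ± 0.11 between WT VAT and WT SAT, neither past the threshold. Its depot difference in KO less that in WT, 0.70 ± 0.15, did pass (limma adjusted p = 0.0128), in the direction of the 10 genes. For Tnni1, Tnnt1, Myl2, Myh7, Actc1, Actn2 and Atp2a2 the KO differences ran from -0.08 to 0.0018 and the WT differences from -0.22 to 0.19, and none passed. Myh7, for example, was at -0.02 ± 0.10 in KO and 0.03 ± 0.10 in WT, where its fast relative Myh4 was at 0.68 ± 0.15 and -1.69 ± 0.15.

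**Figure D4:**
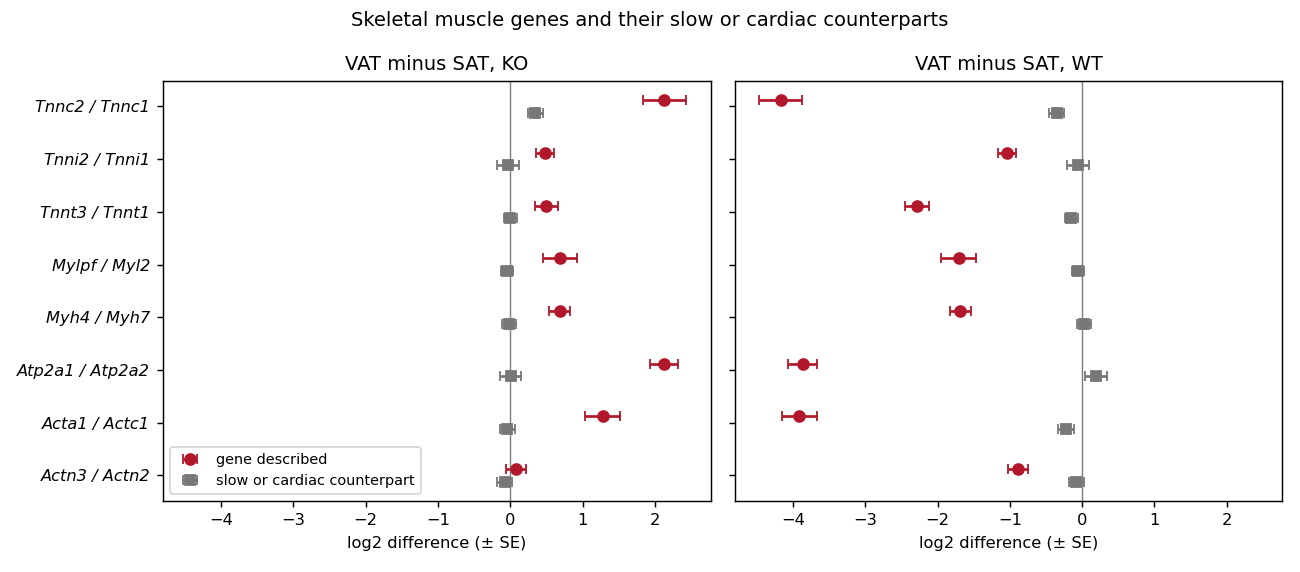
Log2 differences between VAT and SAT (horizontal axis, with SE) in KO and in WT for 8 of the 10 genes, as circles, and for their slow fibre or cardiac counterparts, as squares. The squares lie between -0.35 and 0.35 in both panels, while the circles reach 2.13 in KO and -4.17 in WT.

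Among muscle genes outside the 10, 10 of the 53 in the sarcomere, calcium release and energy lists fell and 1 rose in WT VAT against WT SAT, and 1 rose and 1 fell in KO VAT against KO SAT. Of all genes, 1.32% fell and 1.52% rose in WT, and 1.92% rose and 2.39% fell in KO. Of 23 other sarcomere genes measured, 3 fell and 0 rose in WT VAT against WT SAT (1.32% of all genes fell), with a median of -0.17. They were Myl1, a light chain of fast myosin, at -2.19 ± 0.24 (limma adjusted p = 0.000186), the Z-disc gene Myoz1 at -0.98 ± 0.12 and the fast heavy chain Myh1 at -0.53 ± 0.13. Pdlim3, of the Z-disc, was at -0.43 and did not pass. In KO VAT against KO SAT 0 of the 23 passed in either direction in limma, with a median of -0.02. Myl1 was at 0.44 ± 0.24 (adjusted p = 0.529), Myoz1 at 0.20, Klhl41 at 0.12 and Tpm2, which smooth muscle and stroma also use, at -0.67 (unadjusted p = 0.0452).

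Of 13 genes of calcium release, 2 fell in WT VAT against WT SAT (1.32% of all genes fell), Casq1, the calsequestrin of fast fibres, at -1.64 ± 0.22 (adjusted p = 0.000678, limma) and the release channel gene Ryr1 at -0.53 ± 0.12; the median was -0.20. In KO VAT against KO SAT 1 of 13 fell and 0 rose (2.39% of all genes fell). It was Ryr1, at -0.69 ± 0.12 (adjusted p = 0.00266, limma), a call that was lost on day 1 alone and with the mean of probe sets, where 0 of 13 passed. Casq1 was at 0.64 ± 0.22 (adjusted p = 0.142). Ryr1 was at 5.87 ± 0.15 in KO VAT, 6.56 ± 0.17 in KO SAT, and in the WT mice it was at 5.88 ± 0.17 in VAT against 6.41 ± 0.16 in SAT, an order unlike that of the 10 genes.

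Of 17 genes of muscle energy supply, 5 fell and 1 rose in WT VAT against WT SAT (1.32% of all genes fell and 1.52% rose), with a median of -0.24. The muscle enolase gene Eno3 fell by 1.39 ± 0.09 on the log2 scale (adjusted p = 3.24e-07, limma), the muscle glycogen phosphorylase gene Pygm by 1.13 ± 0.13 and the cytochrome oxidase subunit gene Cox8b, also used in brown fat, by 0.93 ± 0.18. The adenylate kinase gene Ak1 rose by 1.66 ± 0.26 (adjusted p = 0.00273). In KO VAT against KO SAT 1 of 17 rose and 0 fell (1.92% of all genes rose): the amylase gene Amy1, at 0.73 ± 0.15, whose KO VAT mean was near background. Eno3 was at 0.19 ± 0.09 (adjusted p = 0.38, limma), Pgam2 at 0.25 and Ak1 at -0.61.

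Slow fibre and cardiac genes (17 measured) had 0 that passed in either depot comparison in limma, with medians of -0.02 in KO and -0.06 in WT. Of all genes, 1.92% were called higher and 2.39% lower in KO, and 1.52% and 1.32% in WT. Nothing is therefore read from a count of 0 in this list or the next. Tnnc1 and Myl4 had unadjusted p values of 0.00533 and 0.0239 in KO, and Tnnc1 of 0.00441 in WT. Of 13 myogenic regulators and satellite cell genes 0 passed in either, with medians of -0.0053 in KO and -0.06 in WT. Myod1, the master regulator of the muscle lineage, was at 4.95 in KO VAT, 4.67 in KO SAT, 5.08 in WT VAT and 5.55 in WT SAT on average, with unadjusted p values of 0.0389 in KO and 0.00197 in WT. Cdh15 had one of 0.0271 in KO. Pax7, the marker of muscle stem cells, lay below background in all 4 groups.

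Other tissues were looked at through their markers. Of 5 erythroid markers measured, 2 rose in KO VAT against KO SAT, Hbb-b2 by 1.96 ± 0.46 and Alas2, which lay below background in all 4 groups, by 0.38 ± 0.10, where 1.92% of all genes rose. In WT VAT against WT SAT 2 fell, Hbb-b2 at -2.41 ± 0.46 and the globin gene Hba-a1 at -2.47 ± 0.48, where 1.32% of all genes fell. In KO Hba-a1 was at 1.63 ± 0.48 and did not pass (limma adjusted p = 0.0742). Epb42, at -0.03 in KO and 0.13 in WT, and Slc4a1, at 0.07 in KO and 0.01 in WT, did not pass in either. The log2 of their summed linear values ran from 10.89 to 11.33 in KO VAT, 8.44 to 10.15 in KO SAT, 8.49 to 10.31 in WT VAT and 10.59 to 11.89 in WT SAT. The same sum over the 10 muscle genes ran from 9.22 to 10.05 in KO VAT, 8.17 to 8.40 in KO SAT, 8.25 to 8.63 in WT VAT and 11.18 to 12.11 in WT SAT. The erythroid sums of KO VAT and WT SAT overlapped, and the muscle sums of these groups did not. The part of blood in the muscle differences was not tested.

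Of 18 macrophage markers 8 fell and 0 rose in KO VAT against KO SAT (2.39% of all genes fell), and 2, C1qc and Laptm5, fell and 0 rose in WT VAT against WT SAT (1.32% fell). Their sums ran from 13.06 to 13.66 in KO VAT, 13.58 to 14.04 in KO SAT, 13.35 to 14.03 in WT VAT and 13.81 to 14.19 in WT SAT. For the lists that follow, 1.92% of all genes rose and 2.39% fell in KO, and 1.52% rose and 1.32% fell in WT. Smooth muscle markers (8 measured) had 0 that passed in either depot comparison in limma, with medians of -0.08 in KO and -0.06 in WT. No unadjusted limma p of them was under 0.05 in WT, and that of Mylk, the lowest, in KO was 0.00798. Of 9 adipocyte markers 0 passed in KO in limma, where Adipoq, Fabp4, Lipe and Plin4 had unadjusted p under 0.05. Fabp4 and Retn rose in WT VAT against WT SAT, by 0.91 and 0.61. Of 6 brown adipocyte markers 1 fell in KO (Dio2, at -0.69) and 0 passed in WT in limma, where Cpt1b and Dio2 had unadjusted p under 0.05. Ucp1, the defining gene of brown fat, was at 4.88 in KO VAT, 4.92 in KO SAT, 5.27 in WT VAT and 5.38 in WT SAT on average. Of 5 Schwann cell markers 1 fell in KO (2.39% of all genes) and 2 fell in WT (1.32%). Of 11 markers of skin and mammary epithelium 3 rose and 2 fell in KO (1.92% and 2.39% of all genes) and 0 passed in WT in limma, where Trf had unadjusted p under 0.05. In KO VAT the skin keratin genes Krt14 and Krt5 rose by 1.5 and 1.40, and Krt18 and Krt8, of simple epithelia, were at -1.25 and -0.97.

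**Figure D5:**
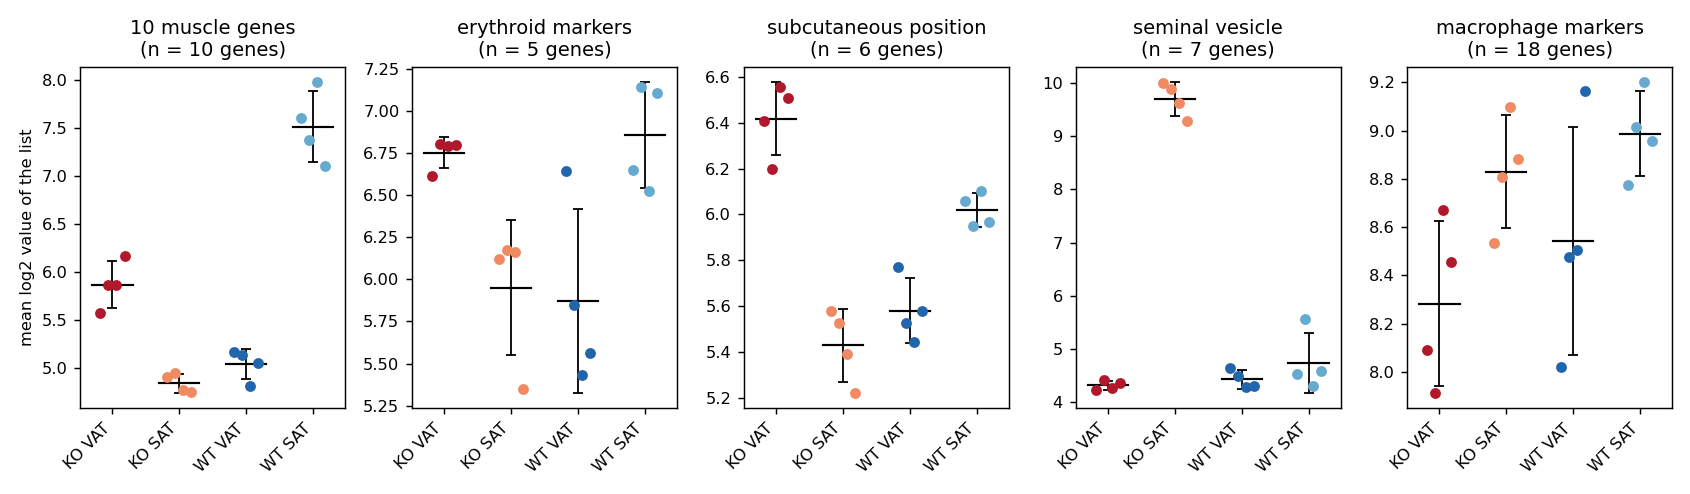
Mean log2 value (vertical axis, scaled separately in each panel) of 5 gene lists on each array, by group; points are pools 1 to 4 from left to right and bars the mean and SD of 4 arrays. The muscle, erythroid and subcutaneous position lists are high in KO VAT and WT SAT, the seminal vesicle list stands at 9.70 in KO SAT, and the macrophage list overlaps between all pairs of groups but KO VAT and WT SAT.

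The genes whose pattern was most like that of the 10 were found by the Pearson correlation with the mean of the 10 over 16 arrays. Of the 12 most alike, 5 belong to the muscle lists: Eno3 (0.97), Casq1 (0.96), Myl1 (0.96), Myoz1 (0.92) and Cox8b (0.91). The others were the T cell receptor complex genes Cd3e (0.93), Cd3d (0.93) and Cd3g (0.90), the ficolin gene Fcna (0.94), Limd2 (0.92), Cyfip2 (0.92) and the myelin gene Mbp (0.90). Cd3e averaged 6.60 in KO VAT, 5.79 in KO SAT, 6.06 in WT VAT and 7.79 in WT SAT, the same order as for the 10 genes. Fcna averaged 5.71, 5.04, 5.33 and 7.65 in the same groups. When only deviations from group means were compared, which leaves out the differences between groups, 4 of the 12 most alike were muscle genes, Myl1 (0.85), Eno3 (0.80), Cox8b (0.77) and the calcium channel subunit gene Cacng1 (0.77), and 3 genes were among the 12 by both measures. The others were Vax2, Mrgprh, Tspan33, Hyal1, Dusp15, Klhdc3, Grtp1 and Emx1, and no T cell gene was among them. These likenesses rest on 16 arrays that share groups and are descriptions.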

How the data were processed

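Deposited values were log2 expression values made with RMA in the affy package, per the submitters' processing notes, which give no versions; values ran from 2.91 to 13.19. Arrays give no counts, so their number limits the precision. Of 45141 probe sets, 104 were controls, 28898 had 1 gene in the platform annotation, 551 had several and 15588 had none. Symbols were updated through RefSeq gene IDs, of which 28689 matched and 0 changed the symbol. Each of 17097 genes took the probe set with the highest mean; 7180 genes had more than 1.

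A model with group and day was fitted to 16 arrays with limma 3.58.1 in R 4.3.3, after a test on simulated data, and p-values were adjusted by Benjamini-Hochberg over all genes, with 0.05 as the threshold. The 10 genes and all 15 other lists were chosen with earlier results of these data known. Genes outside the 10 were named as the up to 4 of smallest p in a list and comparison, as the 12 most alike by each correlation, or, after their values were seen, as members of a small count. Same-numbered pools deviated together in all 4 pairs of KO VAT with KO SAT (correlations of 0.42, 0.57, 0.59 and 0.17) and of KO VAT with WT VAT (0.18, 0.52, 0.51 and 0.25); over all 24 pairs correlations ran from -0.48 to 0.63. Alternative settings dropped the day term, used 1 day, blocked on the pool, fitted only the arrays compared, left out the lowest 40% of genes, averaged probe sets, applied quantile normalization, added the array's spread to the model, or omitted single arrays.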

Additional observations from a re-analysis of the deposited data

Results flagged for a closer look

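The depot difference in KO differed from that in WT for all 10 muscle genes by the interaction term of the limma fit. The direction carries the choice of the genes in WT, and the term uses all 16 arrays, so it is no independent support. KO VAT minus KO SAT, less WT VAT minus WT SAT, was 6.29 for Tnnc2, 5.99 for Atp2a1, 5.19 for Acta1, 4.95 for Pvalb, 2.78 for Tnnt3, 2.52 for Ckm, 2.39 for Mylpf, 2.37 for Myh4, 1.52 for Tnni2 and 0.97 for Actn3 on the log2 scale. Of all genes, 2.10% were called higher by this term. The subcutaneous position genes and the globin genes also differed in opposite directions between depots in KO and WT, and their part in these values was not tested. Among the 40 sets of 4 arrays, 1 per gene and group, 0 held an array far from the other 3, where chance gives about 1 in 20.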

How the results depend on the processing

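Of the 10 muscle genes, 7 passed in KO VAT against KO SAT, but 4 on day 1 alone, 3 on day 2 alone and 4 with the mean of probe sets, and 5 to 9 with 1 array left out. Over all genes 262, 199 and 828 were called in these settings, and 461 to 1054 with 1 array left out. In KO VAT against WT VAT 6 passed, but 3 on day 2 alone, where 331 of all genes were called, and 4 to 7 with 1 array left out. In WT VAT against WT SAT, KO SAT against WT SAT and the interaction, 10 passed whichever array was left out. These comparisons hold the WT SAT arrays that chose the genes, so nothing is read from their counts here or with the block below. The replicate block, which pairs the pools, gave 6 in KO VAT against KO SAT, where Tnni2 was lost, and changed no other call of the 10 genes, with 10 in WT VAT against WT SAT, 10 in KO SAT against WT SAT, 6 in KO VAT against WT VAT and 10 in the interaction. Leaving out the lowest 40% of genes removed Mylpf, Myh4 and Actn3. Actn3 changed sign, to -0.0065 in KO VAT against KO SAT on day 1 alone, and in KO VAT against WT VAT to -0.031 on day 1 alone, -0.017 without WT VAT pool 3 and -0.0081 without KO VAT pool 4, with a range of -0.017 to 0.068 over single arrays left out. Over all genes the counts called were 738 in KO VAT against KO SAT (199 to 2047 over the alternatives), 486 in WT VAT against WT SAT (60 to 4222), 6279 in KO SAT against WT SAT (582 to 7960), 2724 in KO VAT against WT VAT (331 to 5376) and 722 in the interaction (330 to 1904). On day 2 alone 14 other sarcomere genes passed in WT VAT against WT SAT, where 4222 of all genes were called. In KO VAT against KO SAT 0 of them passed on that day, where 199 of all genes were called. The compared arrays alone give no interaction. The cause of these shifts was not tested.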
